A study of Homo sapiens with 12 samples.

Results

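The BCL9 antibody was followed from control to BCL9-knockdown DCIS.COM cells in 5 ChIP-exo libraries of the 12 samples of the series. DCIS.COM is a breast cancer cell line that models ductal carcinoma in situ. The 3 control libraries came from cells with a non-silencing vector (DCIScom-NS, treatment given as Non-scrambled control), and the 2 knockdown libraries (DCIScom-BCL9KD) came from cells with a lentiviral short hairpin RNA against BCL9. A single BCL9 hairpin is given in the methods, so an effect of BCL9 loss and an effect of that hairpin or of the derived cell population cannot be told apart. The libraries were chosen by antibody and treatment, and the labels call the replicates biological. ChIP-exo trims the precipitated DNA with an exonuclease, so that each bound site leaves a peak on both strands, and the deposited lists hold such peak pairs with a signal for each. The 5 lists held 28690, 24728 and 148755 peak pairs in control replicates 1 to 3 and 95586 and 336493 in knockdown replicates 1 and 2.

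BCL9 is a nuclear scaffold protein without a DNA-binding domain of its own. It bridges β-catenin and Pygopus in the Wnt enhanceosome, and reaches DNA through other factors. The question put to these libraries was which positions the antibody still marked, no longer marked, or newly marked once BCL9 was reduced. A peak list holds no protein or RNA level, so the degree of knockdown was not measured here. Each peak pair became a window of 100 bp round its midpoint, and windows that shared at least 1 bp were merged into regions. Because the lists differ in length, regions were first built from the top 24728 peak pairs of every library by signal, which is all of the shortest list. A region was called kept if at least 2 control lists and both knockdown lists had a window in it. It was called core if all 5 lists did, control-only if all 3 control lists and no knockdown list did, and knockdown-only if both knockdown lists and no control list did.

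The windows of a few regions show what the classes looked like at the level of sequence. They are from GRCh37, plus strand, each named by the nearest protein-coding gene. Distances are from the nearest transcription start site (TSS) of that gene, negative upstream of it. Capitals mark the AP-1 string TGANTCA, the binding sequence of FOS and JUN dimers. The first 4 are among the best-ranked core regions, at the SPATC1L promoter (chr21:47604412-47604511), the SP2 promoter (chr17:45973387-45973486), upstream of EFEMP1 (chr2:56219724-56219823) and at the WWTR1 promoter (chr3:149294155-149294254).
SPATC1L: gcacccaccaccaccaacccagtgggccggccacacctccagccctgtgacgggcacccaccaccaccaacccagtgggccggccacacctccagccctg
SP2: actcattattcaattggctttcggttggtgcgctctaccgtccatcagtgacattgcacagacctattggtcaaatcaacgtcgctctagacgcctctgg
EFEMP1: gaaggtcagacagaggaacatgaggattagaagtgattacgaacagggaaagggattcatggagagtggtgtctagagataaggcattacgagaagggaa
WWTR1: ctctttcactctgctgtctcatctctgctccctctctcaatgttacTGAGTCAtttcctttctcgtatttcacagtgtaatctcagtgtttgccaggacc

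The next windows are the best-ranked knockdown-only regions that hold the AP-1 string, near ATPAF2 (chr17:17929689-17929788), SOCS3 (chr17:76325614-76325713), FOXQ1 (chr6:1326083-1326182) and C1D (chr2:68144967-68145066), followed by the knockdown-only region upstream of BCL9 itself (chr1:147010979-147011078).
ATPAF2: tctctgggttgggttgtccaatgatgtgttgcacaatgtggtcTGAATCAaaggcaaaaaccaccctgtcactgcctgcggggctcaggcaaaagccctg
SOCS3: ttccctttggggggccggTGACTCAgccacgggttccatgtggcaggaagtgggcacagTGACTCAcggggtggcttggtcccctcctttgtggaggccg
FOXQ1: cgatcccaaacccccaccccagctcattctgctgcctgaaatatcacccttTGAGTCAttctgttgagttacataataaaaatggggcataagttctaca
C1D: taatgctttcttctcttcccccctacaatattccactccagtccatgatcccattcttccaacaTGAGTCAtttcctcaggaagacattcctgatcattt
BCL9: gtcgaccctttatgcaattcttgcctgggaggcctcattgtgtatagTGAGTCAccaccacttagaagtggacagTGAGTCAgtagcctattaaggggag

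The best-ranked knockdown-only regions of all, near CBR4 (chr4:170037183-170037282) and at SEPTIN9 (chr17:75275875-75275974), and the best-ranked control-only regions, near AP3S1 (chr5:115193785-115193884) and in NFIB (chr9:14320361-14320460), had no AP-1 string.
CBR4: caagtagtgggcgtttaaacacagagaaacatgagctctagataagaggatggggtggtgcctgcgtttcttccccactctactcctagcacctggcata
SEPTIN9: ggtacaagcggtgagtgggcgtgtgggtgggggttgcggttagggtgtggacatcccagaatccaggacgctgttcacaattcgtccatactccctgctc
AP3S1: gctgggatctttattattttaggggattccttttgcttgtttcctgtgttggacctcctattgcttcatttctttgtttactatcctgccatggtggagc
NFIB: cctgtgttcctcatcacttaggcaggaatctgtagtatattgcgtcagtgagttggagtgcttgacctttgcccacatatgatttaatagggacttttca

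The lists reached down to different levels. At the equal list length the weakest peak pair held 5, 9 and 10 tags in control replicates 1 to 3 and 10 and 12 tags in knockdown replicates 1 and 2, a tag being 1 step of the library's signal. The lowest peak pair of the full lists held 5, 9, 6, 7 and 5 tags in the same order. Tag numbers are given as listed, without scaling between libraries, so tags and ranks can order the libraries differently.

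Most of the strongest control positions were still in a knockdown list. Of the 1000 strongest windows of a control list, 96.5% to 98.4% overlapped a window of at least 1 knockdown list at equal length, and 81.4% to 85.4% overlapped both. Of the windows ranked 10001 to 24728, only 36.6% to 52.0% overlapped at least 1 knockdown list. Between conditions, 41.3% to 49.7% of control windows lay in a given knockdown list (6 pairs of lists), while between control libraries the share was 40.9% to 46.1% (6 pairs). From knockdown to control the shares were 39.6% to 57.5%, and between the knockdown libraries 45.6% and 55.9%. The ranges between and within conditions overlapped.

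At equal list length the windows merged into 43208 regions. Of these, 3400 were kept (7.87%) and 2116 of the kept regions were core (4.90% of all regions). Control-only regions numbered 247 (0.572%) and knockdown-only regions 709 (1.64%). The classes are defined by these lists, so their counts are a description and carry no test. In the full lists there were 399734 regions, of which 7659 were kept (1.92%), 3643 core (0.911%), 51 control-only (0.0128%) and 7135 knockdown-only (1.78%). A further 270456 full-list regions lay in 1 knockdown list and no control list. The control-only class requires 3 lists and the knockdown-only class 2, so their sizes cannot be compared directly. Regions in exactly 2 control lists and no knockdown list numbered 1494. Leaving out a library, so that fewer lists were required, gave higher counts. Control-only regions numbered 810, 776 and 673 without control replicate 1, 2 or 3, and 613 and 659 without knockdown replicate 1 or 2. Knockdown-only regions numbered 1006, 973 and 1283 without control replicate 1, 2 or 3, 4235 without knockdown replicate 1 and 7544 without knockdown replicate 2.

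Few of the lost positions were absent from the knockdown libraries altogether. Of the 247 control-only regions, 233 (94.3%) had a peak pair below the equal-length cut in a full knockdown list, 134 in replicate 1 and 217 in replicate 2. The other 14 had none in either. The cuts differ in tags, so such a peak pair can hold more tags than a control list that counts. At MT2A (chr16:56644241-56644452) the tags were 6, 9 and 23 in the controls and 12 in knockdown replicate 2. Of the 709 knockdown-only regions, 424 (59.8%) had a peak pair below the cut in a full control list, and 285 (40.2%) had none. Of the 424, 414 had it in control replicate 3 and 20 in replicate 1. Control replicate 2 could not contribute, because its full list is the equal-length list.

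The strongest position was the same in all 5 lists. The region at the promoter of SPATC1L (chr21:47604307-47604770) ranked first in every library, with 116, 159 and 269 tags in the controls and 412 and 271 tags after knockdown, which did not overlap. Its reference sequence is a tandem repeat: shifted by 53 bp, a 400 bp window matches itself at 73.2% of bases. The promoter of SP2 (chr17:45973149-45973739), which encodes a zinc-finger factor of the SP family, had 37, 58 and 97 tags in the controls and 161 and 97 after knockdown. The knockdown libraries were at or above the highest control here.

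Other leading core regions lay at promoters and between genes. A region at -68350 bp from EFEMP1 (chr2:56219312-56219937), a fibulin of the extracellular matrix, had 52, 59 and 102 tags in the controls and 129 and 67 after knockdown. The promoter of WWTR1 (chr3:149293926-149294488), which encodes the Hippo pathway coactivator TAZ, had 44, 61 and 73 against 139 and 69. The region at -66492 bp from MYC (chr8:128680715-128681661), the proto-oncogene and Wnt target, had 23, 62 and 96 against 70 and 78. In all 3 regions the groups overlapped. The remaining leading core regions were near POU5F1B, MILR1 and RBBP8 and at the promoters of PPP1R13L, an inhibitor of p53, and NAIF1, with 24 to 171 tags in the controls and 52 to 115 after knockdown.

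**Figure D1:**
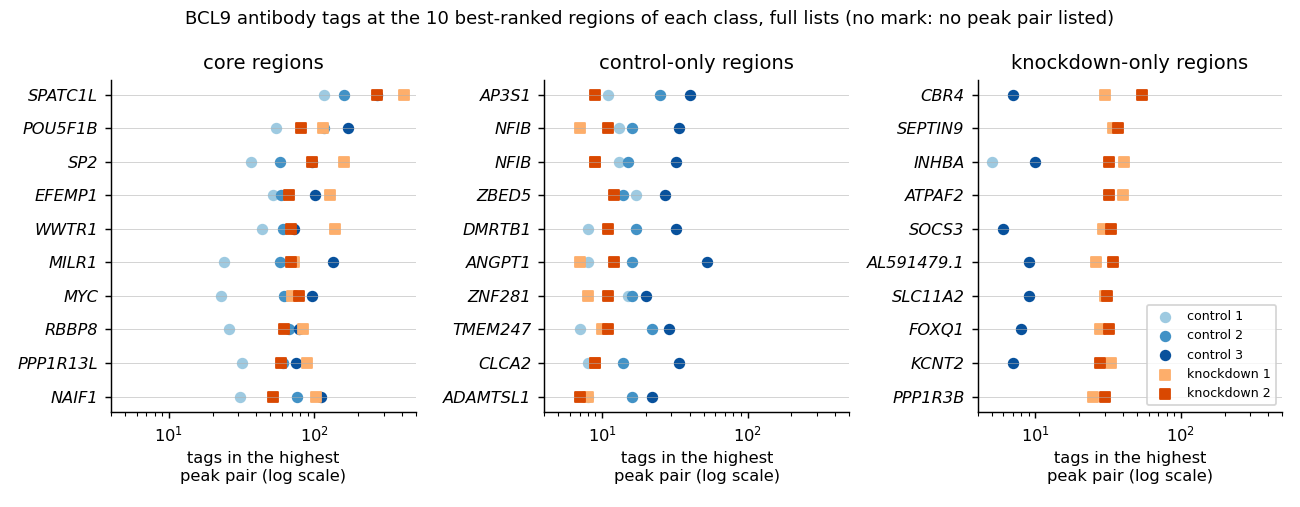
Tags in the highest BCL9 peak pair (log axis) at the 10 best-ranked core, control-only and knockdown-only regions, named by the nearest gene. Each mark is 1 library, taken from the full lists: both knockdown libraries were above every control at SPATC1L, control-only regions had peaks of 7 to 12 tags or none after knockdown, and knockdown-only regions had at most 10 tags in any control library.

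Control-only regions held fewer tags than the leading core regions. The best-ranked, in an intron 16164 bp downstream of the AP3S1 start (chr5:115193675-115193918), had 11, 25 and 40 tags in the controls, none in knockdown replicate 1 and 9 in replicate 2. A region in an intron of NFIB (chr9:14320302-14320485), which encodes a transcription factor of the nuclear factor I family, had 13, 16 and 34 tags against 7 and 11. A region 105260 bp downstream of an NFIB start (chr9:14075409-14075653) had 13, 15 and 32 against 9 and 9. Control replicate 3 gave the highest value at all 3. A region in an intron of CLCA2 (chr1:86895599-86895784), a gene of basal and squamous epithelium, had 8, 14 and 34 tags against 9 and 9, so the lowest control fell below the knockdown libraries. The next regions lay near ZBED5, DMRTB1, ANGPT1, ZNF281, TMEM247 and ADAMTSL1, with 7 to 53 tags in the controls and at most 12 after knockdown. Near DMRTB1, ANGPT1 and TMEM247 the lowest control also had fewer tags than a knockdown library.

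The leading knockdown-only regions held 25 to 54 tags after knockdown. A region at -105796 bp from CBR4 (chr4:170037053-170037351) had 30 and 54 tags after knockdown and 7 in control replicate 3, with no peak pair in the other controls. At the SEPTIN9 promoter (chr17:75275847-75276012), a cytoskeletal GTPase gene, the knockdown libraries had 34 and 37 tags and no control list had a peak pair. Near ATPAF2 (chr17:17929572-17929819), a mitochondrial assembly factor gene, they had 40 and 32 and again no control list had one. A region 30454 bp downstream of SOCS3 (chr17:76325553-76325850), the feedback inhibitor of STAT3 signalling, had 29 and 33 tags against 6 in control replicate 3. A region 13812 bp downstream of FOXQ1 (chr6:1326015-1326275), a forkhead gene linked to epithelial plasticity, had 28 and 32 against 8 in the same library. The others among the best 10 lay near INHBA, AL591479.1, KCNT2 and PPP1R3B and at the promoter of SLC11A2, an iron transporter, with 25 to 41 tags after knockdown. Both knockdown libraries were above every control at all 10, which the choice of the class makes likely.

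Of these 3 classes, control-only regions held the AP-1 string least often and knockdown-only regions most often. It lay within the 100 bp round the mean midpoint of 495 of 2116 core regions (23.4%, Wilson 95% interval 21.6% to 25.2%) and of 37 of 247 control-only regions (15.0%, 11.1% to 19.96%). It lay in 221 of 709 knockdown-only regions (31.2%, 27.9% to 34.7%). Over all 43208 regions the share was 14%, and in flanking windows of the same length at 500 and 1000 bp it was 3.49%. Intervals such as these cover counting error only, and regions are not replicates of a condition. The knockdown-only share exceeded the control-only share by 16.2 points (interval 10.2 to 21.4).

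The share followed the number of knockdown lists that held a region. Among regions in no control list it was 15.7% in 1 knockdown list and 31.2% in both. Among regions in 1 control list it was 8.18% in no knockdown list, 21.7% in 1 and 28.8% in both. Among regions in 2 control lists the shares were 13.4%, 20.1% and 26.8%, and among regions in all 3 they were 15.0%, 16.7% and 23.4%. At both knockdown lists, the share was lower the more control lists held the region. With no knockdown list it was higher the more control lists did (8.18%, 13.4% and 15.0%). The string was scored in a fixed 100 bp, while regions in more lists were longer. At both knockdown lists the median region length was 163, 208, 260 and 344 bp with no, 1, 2 and 3 control lists. The part of region length in these shares was not tested.

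**Figure D2:**
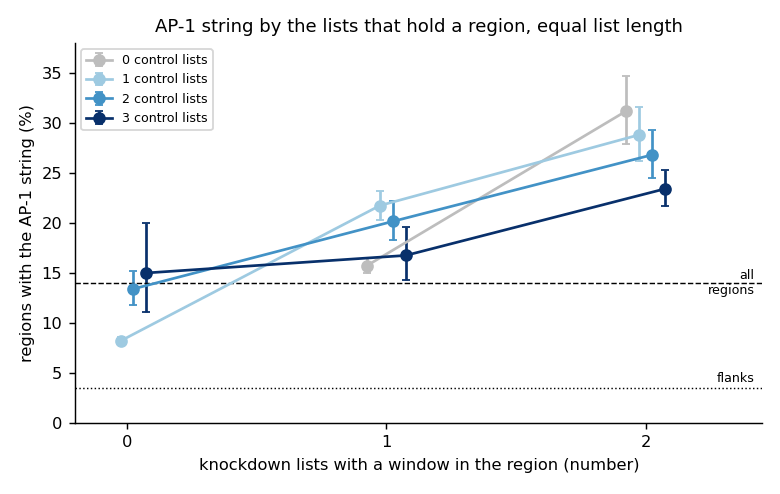
Share of BCL9 regions with the AP-1 string (%) against the number of knockdown lists that hold the region, with 1 line for each number of control lists; bars are Wilson 95% intervals, the dashed line is all regions (14%) and the dotted line flanking windows (3.49%). With both knockdown lists the points run from 23.4% (3 control lists) to 31.2% (no control list).

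Knockdown-only regions absent from the full control lists gave a similar share. In the 285 knockdown-only regions that had no peak pair in any full control list, 83 held the string (29.1%, interval 24.2% to 34.6%), and of the 14 control-only regions absent from the full knockdown lists none did, which allows a share of up to 21.4%. In regions away from promoters the shares were 24.9% of core, 15.4% of control-only and 33.4% of knockdown-only regions. In full lists they were 21.1%, 11.8% (6 of 51) and 15.5% (1108 of 7135), beside 6.05% of all full-list regions. The excess was smaller or reversed with a single knockdown list, where the class requires 1 list in place of both. With knockdown replicate 1 as the only knockdown list the knockdown-only share was 14.9% and lay below the control-only share of 17.0%. With replicate 2 alone it was 22.0% against 14.2%, an excess of 7.79 points. The replicate left out and the looser rule cannot be told apart here. The string was concentrated at the midpoint. Per 20 bp, it occurred 8.04 times in 100 knockdown-only regions just downstream of the midpoint, 5.29 times in 100 core regions and 4.86 times in 100 control-only regions.

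**Figure D3:**
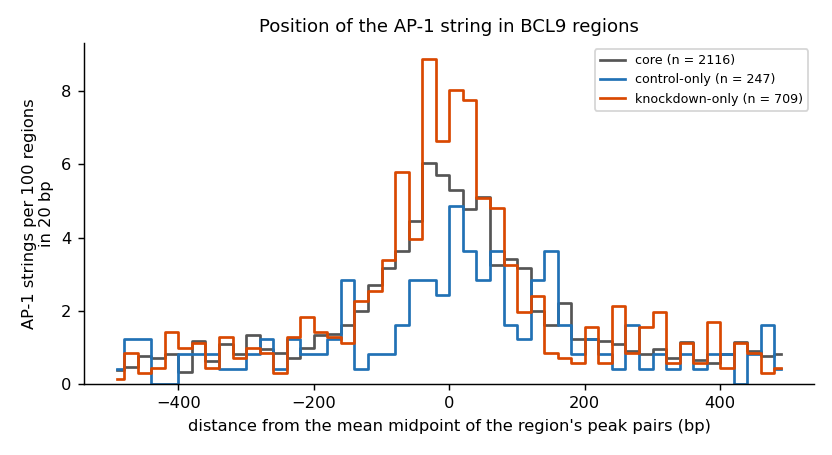
AP-1 strings per 100 regions in steps of 20 bp against the distance from the mean midpoint of the region's peak pairs (bp), for core, control-only and knockdown-only regions. All 3 classes peak within 40 bp of the midpoint, and the knockdown-only curve is the highest there, at up to 8.89.

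For the other strings given here, the knockdown-only share was the lowest of the classes. The TEAD string GGAATG, bound by the partners of YAP and TAZ, lay in 13.6% of core regions (12.2% to 15.1%), 16.6% of control-only regions (12.5% to 21.7%) and 7.19% of knockdown-only regions (5.51% to 9.33%), against 9.20% of all regions. The TFAP2 string GCCNNNGGC, of the AP-2 factors of mammary and skin epithelium, lay in 7.51%, 7.29% and 3.81%, and the RUNX string TGTGGTT in 6.85%, 5.67% and 3.81%. The C/EBP string TTGCNNAA lay in 14.8%, 15.0% and 10.9%. Between control-only and knockdown-only regions the intervals were apart for TEAD and overlapped for TFAP2, RUNX and C/EBP. Knockdown-only regions were below the share of all regions for TEAD (9.20%, inside the interval of 5.51% to 9.33%) and TFAP2 (5.03%). For RUNX they were close to it (3.81% against 3.97%). Below are 2 control-only windows chosen because they hold the TEAD string without AP-1, in capitals, near ENSG00000289761 (chr4:41127059-41127158) and in ATXN10 (chr22:46084756-46084855).
ENSG00000289761: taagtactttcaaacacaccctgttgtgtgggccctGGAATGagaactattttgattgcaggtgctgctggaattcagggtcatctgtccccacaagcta
ATXN10: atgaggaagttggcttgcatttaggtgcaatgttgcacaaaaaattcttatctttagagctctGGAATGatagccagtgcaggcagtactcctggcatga

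**Figure D4:**
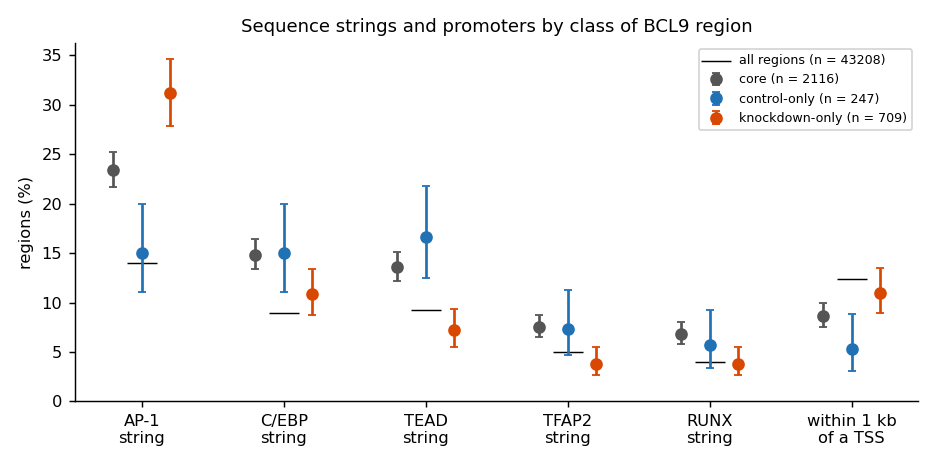
Share of core, control-only and knockdown-only regions (%) that hold each sequence string or lie within 1 kb of a transcription start site (TSS), with Wilson 95% intervals; black bars are all 43208 regions. Knockdown-only regions are highest for AP-1 (31.2%) and lowest for TEAD (7.19%), TFAP2 and RUNX (3.81% each).

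Promoters, regions within 1 kb of a protein-coding TSS, made up 8.65% of core regions, 5.26% of control-only regions and 11% of knockdown-only regions, against 12.3% of all regions. Introns held 38.1%, 48.6% and 36.9%, and exons under 2% of each class.

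Across whole libraries, at equal length, the AP-1 string lay in 13.3%, 13.0% and 18.5% of control windows and in 18.8% and 22.7% of knockdown windows. The groups did not overlap, but control replicate 3 was within 0.3 points of knockdown replicate 1. The difference was 5.73 points (15.0% ± 3.09, SD, n = 3, against 20.7% ± 2.76, n = 2), with an exact two-sided permutation p of 0.2, where 10 assignments allow no p below 0.1. In the 1000 strongest windows the shares were 14.9%, 14.3% and 20.4% against 21.3% and 23.6%. The lowest tags of the equal-length lists, 5, 9 and 10 against 10 and 12, also differed between the libraries, and their part in the difference was not tested. In full lists the direction turned, at 13.0%, 13.1% and 10.1% against 11.8% and 8.56%. Of 28 sequence and position measures, 10 did not overlap between groups at equal length (35.7%), 8 of them higher after knockdown, and 7 in full lists (25%). None passed Benjamini-Hochberg adjustment, where the smallest adjusted p was 0.467. At equal length 6 measures reached the smallest exact permutation p of 0.1, all higher after knockdown: the ETS, GRHL, SP/KLF, E-box and zinc finger strings and the GC content. The ETS string lay in 0.975% to 0.999% of control windows and in 1.16% and 1.25% of knockdown windows. The string of GRHL factors, which maintain epithelia, lay in 1.24% to 1.35% against 1.48% and 1.59%. GC content was 47.7% to 47.9% against 48.1% and 48.2%. In full lists the ETS and GRHL differences turned to -0.15 and -0.17 points.

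AP-1 windows were also recovered differently. In control replicates 1 to 3, 58.3%, 61.7% and 56.7% of windows with the string lay in a knockdown list, as the mean over both, against 39.3%, 41.1% and 47.5% of windows without it. In the other control lists the same windows were found in 54.0%, 57.6% and 45.8% of cases with the string and 40.5%, 42.3% and 44.8% without it. Of knockdown windows, the shares found in a control list were 45.2% with and 41.0% without the string in replicate 1, and 51.3% and 53.6% in replicate 2.

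Where all 5 full lists had a peak pair, no region passed a test of its signal. Log2 signal was first centred on the median of each library over these regions. A rise or fall common to all of them was thereby removed and could not be tested. Of 3643 such regions tested with limma on this centred signal, none (0%) passed an adjusted p of 0.05, and 236 had an unadjusted p under 0.05. The smallest adjusted p was 0.471. Changes ranged from -1.92 to 2.10 on the log2 scale with a median standard error of 0.51, and 267 regions differed by more than 2-fold. On simulated data of this design the test recovered 90% of planted changes of 2 log2 units and 8% of changes of 1 unit, so most 2-fold changes were not detectable with this number of libraries. The simulation gave every region the same normal spread (SD 0.504) and no list cut. Its recovery is therefore not that for positions missing from a list, which this fit did not test. Without control replicate 3, 12 regions passed, 11 of them lower after knockdown.

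The smallest unadjusted p belonged to a region at -9549 bp from PAX8 (chr2:114008593-114009217), a paired-box factor gene, with 5, 11 and 13 tags in the controls and 58 and 50 after knockdown (log2 change 2.10 ± 0.50, SE, limma adjusted p 0.471). Regions upstream of MAT2A (8, 10 and 9 tags against 42 and 52) and of ZNF608 (5, 15 and 13 against 43 and 56) followed on the higher side. On the lower side a region at -590595 bp from SOX9 (chr17:69526356-69526776) had 25, 62 and 98 tags against 10 and 39, and one upstream of ADAMTSL1 (chr9:18666901-18667317) had 14, 27 and 50 against 13 and 11. These were chosen for their p-values and none passed adjustment. Regions with the AP-1 string (768) had a median log2 change of 0.11 and the other 2875 a median of -0.06. Relative to regions without the string, their median log2 signal was -0.19, -0.11 and 0.06 in the controls and 0.08 and 0.21 after knockdown, which did not overlap (difference 0.22, exact permutation p 0.2).

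The densest 1 Mb bins were chosen by their mean number of windows over all 5 libraries, so high numbers in both conditions follow from that choice. The 1 Mb bin with POU5F1B and MYC (chromosome 8, from 128000001) held 148, 173 and 160 of the strongest windows in the controls and 127 and 157 after knockdown. The bin with TP63, the master factor of basal epithelium, and P3H2 (chromosome 3, from 189000001) held 129, 126 and 126 against 123 and 160. In both bins the groups overlapped. Of 1412 bins with at least 5 windows on average, none (0%) passed limma's adjusted p of 0.05, 101 had an unadjusted p under 0.05, and the smallest adjusted p was 0.675. The smallest p was that of the ADAMTSL1 bin (chromosome 9, from 18000001), with 27, 45 and 32 windows against 16 and 11, a log2 change of -1.32 ± 0.32 (SE). Next on the lower side was the bin of KLF9 and TRPM3 (chromosome 9, from 73000001), with 12, 12 and 10 against 3 and 2. On the higher side the smallest p was that of a gene-rich bin with FASN (chromosome 17, from 80000001), with 29, 16 and 22 against 41 and 50. The bin of PHLDA1 and NAP1L1 (chromosome 12, from 76000001) followed, with 43, 51 and 37 against 79 and 65.

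The pSTAT3 libraries, made with an antibody against serine-phosphorylated STAT3 (pS727STAT3 in the labels), took no part in the choice of these regions and served as a second readout. Using the 98665 strongest pSTAT3 windows of each library, core regions held a pSTAT3 window in 91.9%, 84.2% and 92.2% of cases in control libraries and in 90.7% and 90.5% after knockdown (exact permutation p 1.0). Control-only regions did so in 69.6%, 55.9% and 72.5% against 64.4% and 59.9%, a difference of -3.85 points (p 0.6, exact permutation). Knockdown-only regions did so in 65.0%, 50.6% and 69.5% against 71.2% and 71.8%, which did not overlap and differed by 9.78 points (exact permutation p 0.2, adjusted p 0.6). Over all regions the shares were 37.4%, 28.7% and 38.1% against 36.9% and 36.0%. In each control library, at least 50.6% of the knockdown-only regions thus held a pSTAT3 window. Of the 24728 strongest CTCF windows of control cells, a window lay in 0.520% of core, none of the 247 control-only (which allows up to 1.21%) and 0.282% of knockdown-only regions, against 0.993% of all regions. With the full CTCF list the shares were 27.1%, 18.2% and 14.7%, against 13.8% of all regions.

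Within the knockdown-only class, the 221 regions with AP-1 held a pSTAT3 window in 81.9%, 71.0% and 88.2% of cases in control libraries and 91.0% and 92.8% after knockdown. The 488 without it did so in 57.4%, 41.4% and 61.1% against 62.3% in both. Control pSTAT3 replicate 2, which has the shortest pSTAT3 list, was the lowest in each of these.

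Core promoters held pSTAT3 windows less often than other core regions. The windows are again the 98665 strongest of each library. Of the 1933 core regions away from promoters, 88.3% to 96.9% held a pSTAT3 window in each of the 5 pSTAT3 libraries, and 10 (0.517%) held one in none. Of the 183 core promoters, 39.3% to 51.9% did, the lower share in 5 of 5 libraries. Of the promoters, 73 (39.9%) held one in no library, 50 in some and 60 in all 5. With the full pSTAT3 lists, 22 of the 183 held none, as did 2 of the 1933 away from promoters. Over all regions the corresponding shares were 30.3% to 40.4% away from promoters and 17.4% to 23.3% at them. The promoters without a window among the strongest included SPATC1L, SP2, NAIF1, ANKHD1, PRMT1, an arginine methyltransferase gene, RAB5B, HNRNPL and DNM2. Of these, DNM2 alone had none in the full lists either, and SPATC1L, SP2 and NAIF1 each had a peak pair of 5, 4 and 3 tags in 1 full list. The 60 with a pSTAT3 window in all 5 libraries included WWTR1, TRIB3, ITGB5, ITGB2, LAMB3, PLOD2 and DUSP6, the last a MAPK phosphatase.

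**Figure D5:**
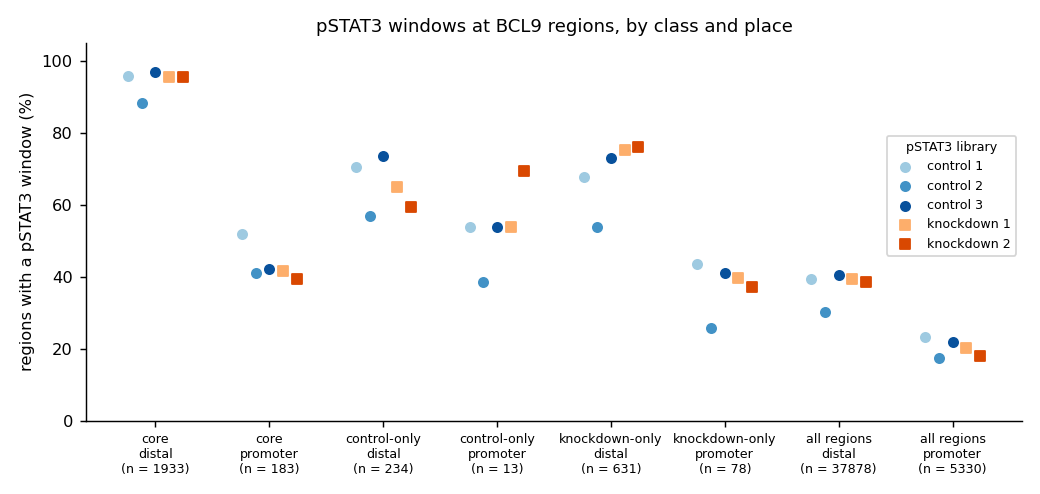
Share of BCL9 regions (%) with a pSTAT3 window in each pSTAT3 library, for core, control-only and knockdown-only regions and all regions, away from promoters (distal) and at them. Circles are control and squares knockdown libraries: distal core regions lie at 88.3% to 96.9% and core promoters at 39.3% to 51.9%.

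The core promoters with and without a strong pSTAT3 window differed in sequence. None of the 73 without pSTAT3 held the AP-1 string, which allows a share of up to 4.11%, while 14 of the 60 with pSTAT3 in all libraries did (23.3%, interval 14.4% to 35.4%). The NF-Y string CCAATCNG, the CCAAT box of housekeeping promoters, lay in 10 of the 73 (13.7%, 7.61% to 23.4%) and in none of the 60, against 1.38% of all windows round protein-coding TSSs. Those windows are the 100 bp centred on each TSS, whereas a core promoter window lies anywhere within 1 kb of one. The positions are therefore not matched, and the 1.38% is no background for windows upstream of a TSS. CpG-rich sequence lay at 50 of the 73 (68.5%) and 3 of the 60 (5.00%). Of the 22 promoters without pSTAT3 in the full lists, none held the AP-1 string, 5 held the NF-Y string and 15 were CpG-rich. Of the 64 with pSTAT3 in all full lists, the numbers were 14, 1 and 7. The windows of CYTH2 (chr19:48972403-48972502) and OSBP (chr11:59383389-59383488), the best-ranked core promoters with the NF-Y string and no pSTAT3 peak pair in any full list, show it in capitals.
CYTH2: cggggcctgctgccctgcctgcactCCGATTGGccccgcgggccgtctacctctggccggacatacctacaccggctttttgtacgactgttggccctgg
OSBP: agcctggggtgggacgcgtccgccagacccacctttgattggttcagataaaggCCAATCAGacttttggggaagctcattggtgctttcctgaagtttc

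Both promoters were in all 5 lists. CYTH2, an ARF exchange factor gene, had 21, 25 and 45 tags in the controls and 58 and 37 after knockdown. OSBP, an oxysterol-binding protein gene, had 12, 34 and 39 against 40 and 82.

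Genes were linked to regions within 5 kb of a TSS, at equal list length unless full lists are named. Of 19748 protein-coding genes, 596 (3.02%) had a kept region, 374 (1.89%) a core region, 34 (0.172%) a control-only region and 151 (0.765%) a knockdown-only region. With full lists the shares were 6.9%, 3.22%, 0.0456% and 10.4%. Of 14 integrin genes, which anchor epithelia to the matrix, 4 had a kept region (ITGB5, ITGB2, ITGA3 and ITGB3). At ITGB5 (chr3:124597957-124598221) the tags were 13, 36 and 38 in the controls and 44 and 52 after knockdown. At ITGA3 (chr17:48128415-48128902) they were 12, 11 and 17 against 42 and 57. The knockdown libraries had the most tags at both. By rank within each library the groups overlapped at ITGB5 (1218, 253 and 1322 against 505 and 293). At ITGA3 they did not (1635, 10250 and 8672 against 593 and 187). At the second kept region of each gene the groups overlapped, with no peak pair, 11 and 36 tags against 34 and 21 at ITGB5 (chr3:124597454-124597750) and 7, 18 and 22 against 19 and 37 at ITGA3 (chr17:48138168-48138616). Of 20 basal epithelial genes, LAMB3 and LAMA3 had a kept region, and LAMB3 (chr1:209826369-209826740) had 24, 51 and 71 tags against 24 and 36. By rank this region was ahead in the controls (140, 62 and 118 against 3136 and 1112). The other kept regions of LAMB3 had the most tags after knockdown. At chr1:209830570-209831056 they were 9, 24 and 34 against 42 and 42, with ranks of 3237, 1000 and 1832 against 553 and 672. At chr1:209827426-209827681 they were 7, 14 and 7 against 20 and 18. The ranks there overlapped, at 7063 and 5158 in control replicates 1 and 2 against 4780 and 9307. The gene lists were short, so a count of 1 to 4 genes is a description only.

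Among 15 genes of the BCL9, Pygopus and Wnt enhanceosome group, SSBP3, BCL9L and BCL9 had a kept region, and BCL9 and BCL9L each also had a knockdown-only region. The knockdown-only region at -2255 bp from a BCL9 start (chr1:147010935-147011098) had 25 and 30 tags after knockdown. In the full control lists it had 8 tags in replicate 3 and no peak pair in replicates 1 and 2. It held pSTAT3 peak pairs in all 5 pSTAT3 libraries, with 21, 25 and 82 tags in the controls and 43 and 94 after knockdown, and holds the AP-1 string at 2 places. The kept region 3789 bp downstream of a BCL9 start (chr1:147016944-147017176) had 6, 9 and 8 tags in the full control lists and 12 and 13 after knockdown. Its ranks overlapped, at 11167 and 23828 in control replicates 1 and 2 against 16939 and 22614. At BCL9L, the paralogue of BCL9, the knockdown-only region at -1497 bp from a start (chr11:118783014-118783207) had 15 and 26 tags after knockdown and 8 in control replicate 3 only, and the core region (chr11:118791972-118792237) had 6, 13 and 12 against 22 and 25. PYGO2 and CTNNB1, encoding Pygopus and β-catenin, and PYGO1 had no region in any class, with full lists included. Within 5 kb of CTNNB1 the highest peak pair held 9 tags in control replicate 3, none in the other controls, and 8 and 7 after knockdown. Of 20 Wnt targets and components, RNF43 and DKK1, both feedback inhibitors, had a kept region, and RNF43 (chr17:56479972-56480318) had 11, 18 and 27 against 12 and 23. No Wnt list gene had a control-only or knockdown-only region. With full lists, MYC was a further Wnt gene with a kept region, and CCND1, MYC and TCF7 had a knockdown-only region (3 of 20, against 10.4% of all genes).

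Of the 9 surface and protease genes singled out by the study, only ITGB3 had a kept region and only ITGAV a knockdown-only one. At ITGB3, the β3 integrin chain, the kept region 4317 bp downstream of the start (chr17:45335357-45335715) had 8 tags in control replicate 1, no peak pair in replicate 2, 15 in replicate 3, and 13 and 16 after knockdown. At ITGAV, the partner chain αV, the promoter region (chr2:187453978-187454087) had 14 and 15 tags after knockdown, with no peak pair within 5 kb of a start in any full control list. CD44, MUC1, FZD7, MMP16, ITGA2 and ITGB4 had no region in these classes. With full lists, ITGB3, ITGA2 and CD44 had a kept region (3 of 9, against 6.9% of all genes), and ITGAV, ITGB3, ITGA2, MUC1 and CD44 a knockdown-only region (5 of 9, against 10.4%). ITGA4 had no peak pair within 5 kb in any BCL9 list. At ITGA2 the highest peak pair held 8, 13 and 10 tags against 24 and 16, and at ITGB4 5, 13 and 13 against 9 and 11. By rank the groups overlapped at ITGA2 (4469, 5780 and 25552 against 3006 and 13318). At ITGB4 the controls were ahead by rank (19135, 6923 and 15567 against 35631 and 31703).

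Of 30 STAT3 targets, BCL3 and IRF1 had a kept region and HIF1A, the hypoxia factor, a knockdown-only region, with 11 and 19 tags after knockdown and 9 in control replicate 3 only. Of 18 transcription factor genes of the REL, ETS, C/EBP and AP-1 families, ATF3 and ETS2 had a kept region and none a control-only or knockdown-only region. Of 11 metallothioneins, MT2A had a core region (17, 27 and 37 tags against 19 and 14) and the only control-only region of all lists (chr16:56644241-56644452), with 6, 9 and 23 tags in the controls, none in knockdown replicate 1 and 12 in the full list of replicate 2. Of 12 replication-dependent histone genes, H3C2 had a kept region, and the neighbours H2AC20 and H2BC21 shared another. The neighbours H2AC6 and H2BC4 shared a knockdown-only region, with 18 and 15 tags after knockdown and 9 in control replicate 3 only. SFN, the epithelial 14-3-3 sigma gene, had a knockdown-only promoter region with the same tag numbers in the same libraries. With full lists, 9 of the 12 histone genes had a kept region and 5 a knockdown-only one, against 6.9% and 10.4% of all genes. Neighbouring histone genes can share a region. Of 12 matrix metalloproteinase genes, MMP10 had a core region. The 20 ribosomal protein genes and the 23 genes of other tissues had no region in any class. With full lists RPL4 and MBP had a kept region, and RPL3, RPS27A and MBP a knockdown-only one.

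The distance between the strand peaks of a pair, a measure of the exonuclease footprint that the ranking did not use, had medians of 107, 101 and 118 bp in the controls and 123 and 85 bp after knockdown. The 2 knockdown libraries lay on either side of the controls, and the means of 109 bp ± 8.62 (SD, n = 3) and 104 bp ± 26.9 (n = 2) gave an exact permutation p of 0.9.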

How the data were processed

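The authors deposited 1 list of ChIP-exo peak pairs per library, on hg19, with a signal per pair, which came out as tag numbers multiplied by 1 constant per library. The submitters' processing notes name bcl2fastq and hg19, and the paper's methods a peak caller, ChExMix, whereas the lists carry the tag of a peak-pairing tool. Neither aligner nor origin of that constant is stated (not given in the sources used here). An IgG library was not analysed here. Read depth is unknown, and the length of a list does not stand for it.

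Peak pairs were ranked by signal within each list, with ties ordered by a seeded random key. Genes and TSSs (78530) came from the GRCh37 lift of GENCODE 44. Both strands of GRCh37 were searched for motif strings, with flanking windows at 500 and 1000 bp as background. Besides those in the text they were TTCCNGGAA (STAT3), CCGGAAG (ETS), GGANTTTCC (REL), CTTTGAT (TCF/LEF), AACCNGTT (GRHL), TGTTTAC (FOX), TGACGTCA (ATF/CRE), GCGCNTGCG (NRF1), ANATGGCG (YY1), GGGCGGGG (SP/KLF) and CACGTG (E-box), and strings of CTCF, p53/p63, a zinc finger class, a TG repeat and an A tract. ETS and STAT3 strings can share bases. CpG-rich means, over 200 bp, a GC content of at least 50% and an observed over expected CpG of at least 0.6. Bases masked as repeats were not classed, as the reference used is not soft-masked.

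Libraries were compared by exact two-sided permutation of the condition (10 assignments). Regions (log2 signal centred on each library's median) and 1 Mb bins (log2 of windows plus 0.5) were tested with limma 3.58.1 in R 4.3.3. Both fits used Benjamini-Hochberg adjustment and a mean-variance trend. The steps were checked on simulated data. The members, gene lists and tests were chosen with earlier results of these data known, and the TFAP2 string, the display of TEAD and NF-Y windows and the split of core promoters by pSTAT3 after these values were seen. Genes were named by a fixed rule: BCL9, its partners and the study's targets, the genes nearest to the 10 best-ranked regions of each class, and up to 6 members of each list with a region. The regions and bins of smallest p, the densest bins and the leading core promoters were named after their values were seen. PECAM1 had no match in the annotation.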

Additional observations from a re-analysis of the deposited data

How the results depend on the processing

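The counts of regions moved with list length and with the libraries required. With the strongest 10000 peak pairs of each list there were 1477 kept, 901 core, 155 control-only and 338 knockdown-only regions, and with full lists 7659, 3643, 51 and 7135. Requiring absence from the full lists of the other condition left 14 control-only and 285 knockdown-only regions. Leaving out 1 library in turn gave 2376 to 4568 kept, 2376 to 2591 core, 613 to 810 control-only and 973 to 7544 knockdown-only regions, the highest without knockdown replicate 2. Windows of 50 or 200 bp and an overlap of 50 bp kept these 4 counts within 1.5 times. The excess of AP-1 in knockdown-only over control-only regions was 29.1 points with absence from the full lists, 22.0 with the strongest 10000, 3.76 with full lists and 7.46 with windows of 50 bp. Leaving out 1 library gave -2.07 to 18.4 points, the lowest without knockdown replicate 2. The AP-1, promoter, ETS and GRHL differences between libraries turned to -1.85, -0.71, -0.15 and -0.17 points in full lists, and the promoter difference ranged from -0.39 to 1.78 points without single libraries. The pSTAT3 difference at core regions ranged from -1.44 to 2.55 points without single libraries, and that at control-only regions was 15.8 points with full pSTAT3 lists, where the difference over all regions was 17.2 points. Core promoters without a pSTAT3 window numbered 22 with full pSTAT3 lists, an alternative chosen after seeing the data. The peak pair distance ranged from -23.7 to 14.3 bp. Listed genes with a kept region numbered 20, with 8 within 1 kb, 44 in full lists and 11 to 27 without single libraries. Regions past limma's threshold numbered 0 to 12 without single libraries, and 0 in every other fit of regions or bins. With the replicate number as a block, 0 regions and 0 bins passed, with smallest adjusted p of 0.0521 and 0.702. The labels tie the numbers to no shared culture or day, and the deviations of same-numbered samples from their group means correlated at -0.0072 and -0.049 over 3643 regions. The causes of these shifts were not tested. With 3 and 2 libraries, most region changes near 2-fold were not detectable.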
